A study of Mus musculus with 6 samples.

Results

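Protein phosphatases remove phosphate from serine and threonine residues, and a small number of catalytic subunits is directed to many substrates by a much larger number of regulatory subunits. The genes described here were the catalytic and regulatory subunits of the phosphatases PP1 to PP6 together with the Phactr genes, which encode regulators that bind both PP1 and actin. They were taken from a gene expression array of mouse heart as every probe whose gene symbol began with Ppp, a digit from 1 to 6 and c or r, or with Phactr and a digit. The rule found 83 probes of 53 genes among the 25697 probes and 18138 gene symbols of the table. The hearts came from male FVB mice at postnatal day 6, 3 with hSRY-ON and 3 with hSRY-OFF, and each was hybridized to 1 array. hSRY-ON mice carried the Signalox-hSRY transgene in which the human SRY coding sequence had been placed under the ubiquitous CAG promoter by Cre recombination in the zygote, with Cre supplied by the oocyte of a Ddx4-Cre mother, and the hSRY-ON mice chosen for the arrays had not inherited Ddx4-Cre themselves. hSRY-OFF was defined in the methods as Signalox-hSRY without recombination, whereas control littermates elsewhere in the study carried Ddx4-Cre only or no transgene, so that the exact control genotype of these hearts is uncertain. The transgene sat at a single integration site of 1 line, and the human transcript was not measured by these mouse probes.

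In the heart, PP1 and PP2A oppose the kinases that set the force of the beat, with phospholamban, the ryanodine receptor and myofilament proteins among their known substrates. PP1 activity is held down by small inhibitor proteins, several of which become active only when protein kinase A or protein kinase C has phosphorylated them, and PP1 is brought to glycogen, myosin or chromatin by targeting subunits. Calcineurin, also called PP2B, is the calcium-dependent phosphatase that drives NFAT transcription factors into the nucleus and is a known inducer of cardiac hypertrophy. Phactr proteins join PP1 to monomeric actin, the same pool of actin that holds the SRF coactivators of the MRTF family in the cytoplasm.

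The values are log2 intensities after background correction and quantile normalization. The lowest detected signal of an array was 5.28 to 5.56 on this scale. Testing was restricted to probes with a detection p under 0.05 in 3 or more of the 6 hearts, and up- or down-regulation was called at a Benjamini-Hochberg adjusted p under 0.05 over all 12970 tested probes by limma. Each array detected 47.2% to 51.3% of its probes and 60 to 64 of the 83 phosphatase and Phactr probes. Of these 83, 62 probes of 44 genes were tested, 58 of them detected on all 6 arrays and 4 on some. Of the 21 that were not tested, 18 were detected on no array and 3 on some. The 9 genes with no tested probe were Phactr3, Ppp1r14d, Ppp1r16b, Ppp1r1c, Ppp1r3a, Ppp1r7, Ppp2r2b, Ppp4r2 and Ppp4r4. A probe that was not detected gives no evidence that its gene was silent.

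The tissue label was borne out by its markers. All 14 probes of the 12 cardiomyocyte marker genes on the array passed the detection filter, with sums of 209000 to 228000 over the control arrays and 201000 to 216000 over the hSRY-ON arrays. Such sums follow the brightest probes. Of the 14 probes 2 were up-regulated and 6 down-regulated (57.1% called, against 27.5% of all tested probes). The largest increase was that of Myh7, at 2.94, and the largest decrease that of a Myh6 probe, at -1.97. Phospholamban (Pln) was at -1.47 (limma adjusted p = 0.00908) and the ryanodine receptor gene Ryr2 at -1.09 (limma adjusted p = 0.0125). The heart of hSRY-ON replicate 1 stood apart in Scgb1a1, a secreted protein of airway club cells, at 13.74 against 4.53 to 6.52 in the other hearts, and its summed lung epithelium markers (5 genes) were 13800 against 94.3 to 134 in hSRY-OFF replicates 2 and 3 and hSRY-ON replicates 2 and 3 and 76.4 in hSRY-OFF replicate 1. Macrophage markers (6 genes) summed to 2910 to 3950 in the hSRY-OFF group and 6480 to 7380 in the hSRY-ON group, and smooth muscle markers (7 genes) to 68300 to 74800 and 107000 to 126000. Liver markers (8 genes) summed to 852 to 948 and 3180 to 5640, with albumin (Alb) on no array above background, and the sums of neuron and neural crest markers (10 genes) were 559 to 589 in control arrays and 292 to 342 in hSRY-ON arrays. The part of these markers in the results was not tested. In RNA of whole hearts, a change in the number of cells of a type and a change in RNA per cell cannot be told apart.

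Most phosphatase subunit probes were not called, while the PP1 inhibitor gene Ppp1r1b and the actin regulator Phactr1 were 14.6-fold and 11.6-fold higher in hSRY-ON hearts. Of the 62 tested probes, 11 were called (17.7%), 8 up-regulated and 3 down-regulated, against a background of 27.5% called among all tested probes, 13.8% up and 13.7% down. The 8 up-regulated probes belonged to Ppp1r1b (2 probes), Phactr1, Ppp1r3f, Ppp1r1a, Phactr4, Ppp3ca and Ppp2r5b, and the 3 down-regulated ones to Ppp1r14c, Ppp2cz and Ppp5c. The 3 hearts of one group lay wholly apart from the 3 of the other for 19 of the 62 probes (30.6%), where 45.2% of all tested probes did so. The median log2 fold change was -0.04 over the 62 probes and -0.005 over all tested probes. An unadjusted p under 0.05 in limma was reached by 21 of the 62 probes and by 5228 of all 12970 tested probes. Without the heart of hSRY-ON replicate 1, 5 probes were up-regulated and 3 down-regulated. Those 3 were Ppp1r14c and both probes of Ppp1r10, while Ppp2cz and Ppp5c lost their calls. Without hSRY-OFF replicate 1 and without hSRY-OFF replicate 2 there were 5 up-regulated each, without hSRY-OFF replicate 3 there were 8 down-regulated, and without hSRY-ON replicate 3 there were 5 down-regulated.

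**Figure D1:**
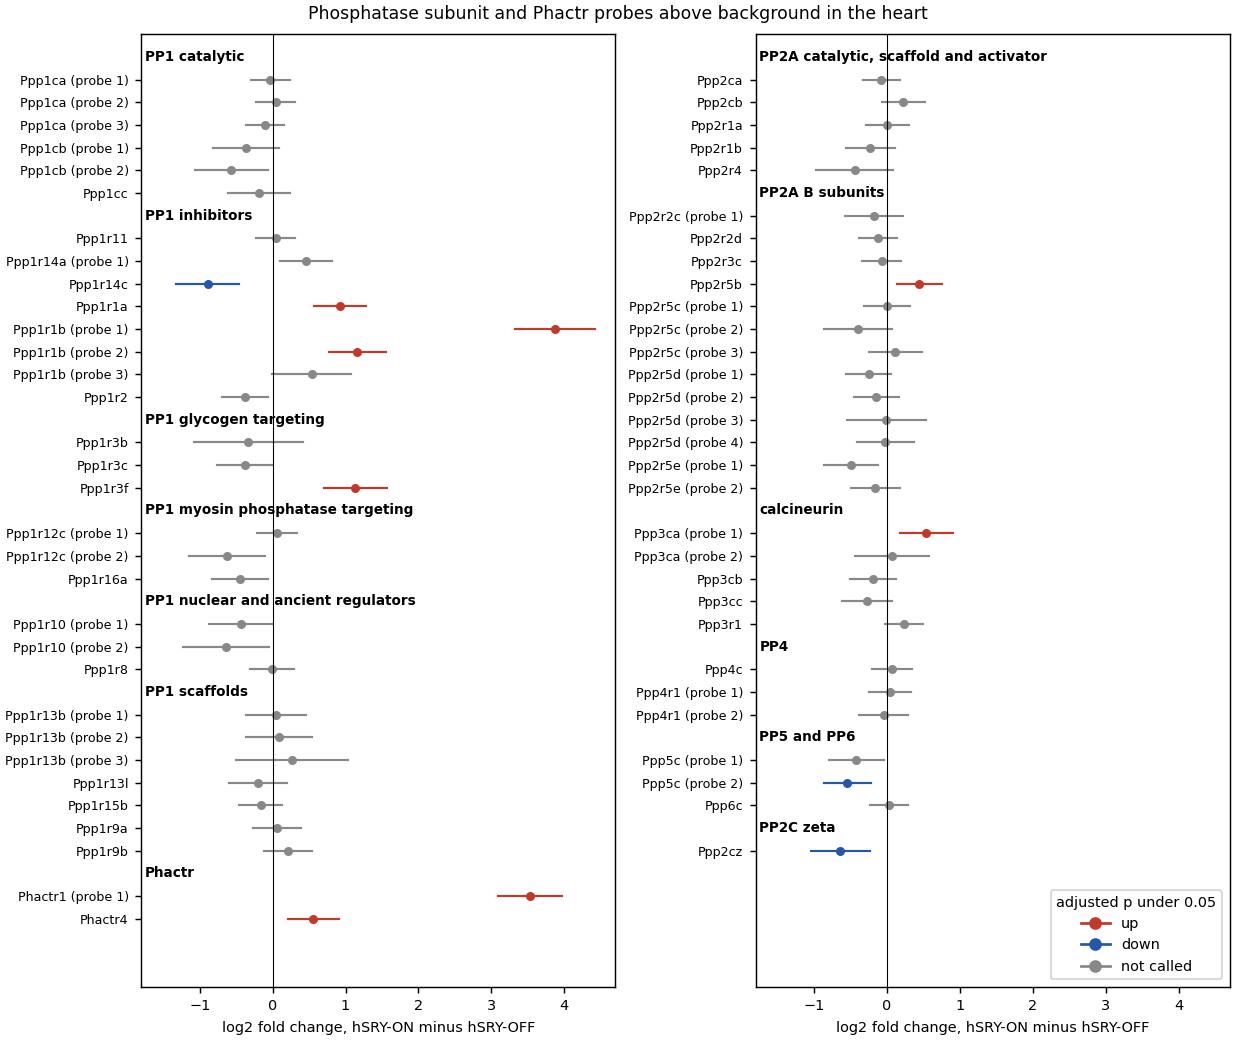
Log2 fold change, hSRY-ON minus hSRY-OFF (x axis), of each of the 62 tested phosphatase and Phactr probes, grouped by role, with points for the fitted value and bars for its 95% interval from the fit over 3 hearts per group. Red marks the 8 up-regulated and blue the 3 down-regulated probes; Ppp1r1b probe 1 at 3.87 and Phactr1 probe 1 at 3.53 lie far from the other probes, which stay between -0.89 and 1.16.

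None of the 6 tested probes of the PP1 catalytic subunits was called, where 27.5% of all tested probes were. An unadjusted p under 0.05 in limma was reached by 1 of the 6 and by 5228 of all 12970 tested probes. Ppp1ca, the alpha catalytic subunit, gave by its brightest probe 13.80, 13.63 and 13.85 in hSRY-OFF and 13.71, 13.74 and 13.72 in hSRY-ON hearts, a log2 difference of -0.04 (95% interval -0.30 to 0.23). The hearts overlapped at that probe and at the other 2 probes of the gene. The second probe read 13.59, 13.42 and 13.58 in hSRY-OFF and 13.59, 13.61 and 13.52 in hSRY-ON hearts, a difference of 0.05 (-0.22 to 0.31). The dimmest read 13.45, 13.29 and 13.48 against 13.32, 13.26 and 13.33, a difference of -0.10 (-0.37 to 0.16), so the 3 probes differed in sign within intervals that all included 0. Ppp1cb, the beta catalytic subunit of myosin phosphatase, read 10.02, 10.15 and 9.52 in hSRY-OFF and 9.66, 9.29 and 9.65 in hSRY-ON hearts at probe 1, a difference of -0.37 (-0.82 to 0.09). Its probe 2 read 9.39, 9.99 and 9.13 against 9.0, 8.84 and 8.97, with every hSRY-ON heart below every hSRY-OFF heart and a difference of -0.57 (-1.07 to -0.07, limma adjusted p = 0.0896). Without hSRY-OFF replicate 3, the heart with the lowest Ppp1cb of its group, both probes were down-regulated, at -0.55 (limma adjusted p = 0.044) and -0.76 (limma adjusted p = 0.0332). Ppp1cc, the gamma catalytic subunit, read 7.49, 6.81 and 7.22 in hSRY-OFF and 6.96, 7.06 and 6.94 in hSRY-ON hearts, a difference of -0.18 (-0.61 to 0.24) with overlapping hearts.

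The PP1 inhibitors were the group with the most calls. Of 8 tested probes of 6 genes, 3 were up-regulated and 1 was down-regulated, against 13.8% up and 13.7% down among all tested probes. Ppp1r1b encodes DARPP-32, which inhibits PP1 once protein kinase A has phosphorylated it and is best known from dopamine-responsive neurons of the striatum. Its brightest probe read 7.36, 7.39 and 7.35 in hSRY-OFF hearts and 10.69, 11.69 and 11.32 in hSRY-ON hearts. The hSRY-OFF hearts were nearly identical, and the lowest hSRY-ON heart lay far above all of them. The log2 fold change was 3.87 (SE 0.24, limma adjusted p = 8.0e-05), a 14.6-fold difference that ranked 9 by increase among the 12970 tested probes. Without background correction the log2 fold change was 3.08, an 8.46-fold difference. The deposited intensities of that probe were 337, 364 and 243 in hSRY-OFF and 1666, 3398 and 2525 in hSRY-ON hearts. The second Ppp1r1b probe was dim, at 5.39, 5.69 and 5.15 in hSRY-OFF hearts, where 1 of 3 arrays detected it, and at 6.40, 6.61 and 6.70 in hSRY-ON hearts, where all 3 did. It too was up-regulated, by 1.16 (SE 0.17, limma adjusted p = 0.00246), and by 0.38 without background correction. The dimmest probe, at 5.14, 5.39 and 5.90 against 6.35, 5.94 and 5.76, had overlapping hearts and was not called, at 0.53 (SE 0.23, limma adjusted p = 0.126), but without hSRY-OFF replicate 3 it was up-regulated by 0.77 (limma adjusted p = 0.0358). The 3 probes thus had the same sign and very different sizes. Their positions on the transcripts were not given in the sources used here. Among the neuron and neural crest markers, Stmn2 was detected on all 6 arrays and fell by 0.52 (limma adjusted p = 0.0334), and Dbh was detected in the 3 hSRY-OFF hearts only and fell by 2.56 (limma adjusted p = 5.4e-05). Tubb3 was detected on 3 and Gap43 on 2 arrays, and Snap25, Syt1, Th, Elavl4 and Prph were detected on none.

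Ppp1r1a encodes inhibitor-1, the protein kinase A-activated PP1 inhibitor of cardiac muscle, where PP1 removes phosphate from phospholamban. It read 9.58, 9.83 and 9.49 in hSRY-OFF and 10.35, 10.56 and 10.75 in hSRY-ON hearts, with no overlap. The log2 fold change was 0.92 (SE 0.15, limma adjusted p = 0.00446), a 1.89-fold difference. Ppp1r14c, a PP1 inhibitor whose action is raised by protein kinase C, changed in the opposite direction. It read 8.50, 8.16 and 7.87 in hSRY-OFF and 7.49, 7.11 and 7.25 in hSRY-ON hearts, again with no overlap, and was down-regulated by a log2 fold change of -0.89 (SE 0.19, limma adjusted p = 0.0111). It was the largest decrease among the 62 probes. The related Ppp1r14a, known as CPI-17 and active in smooth muscle, was at 0.45 (SE 0.15, limma adjusted p = 0.0637) by its brighter probe, with all hSRY-ON hearts above all hSRY-OFF hearts. It was up-regulated without hSRY-OFF replicate 3 (0.54, limma adjusted p = 0.0488). The summed smooth muscle markers were 1.61 times as high in hSRY-ON as in hSRY-OFF hearts, but the markers were divided. Of their 10 tested probes 5 were up-regulated, those of Acta2 and Tagln, and 3 were down-regulated, those of Smtn. The shares among all tested probes were 13.8% up and 13.7% down. Myh11 was not called, at -0.42 (limma adjusted p = 0.114), with all hSRY-ON hearts below all hSRY-OFF hearts. The part of these markers in the Ppp1r14a value was not tested. Inhibitor-2, encoded by Ppp1r2, was at -0.38 (SE 0.13, limma adjusted p = 0.0731), and inhibitor-3, encoded by Ppp1r11, was at 0.04 (95% interval -0.22 to 0.31).

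**Figure D2:**
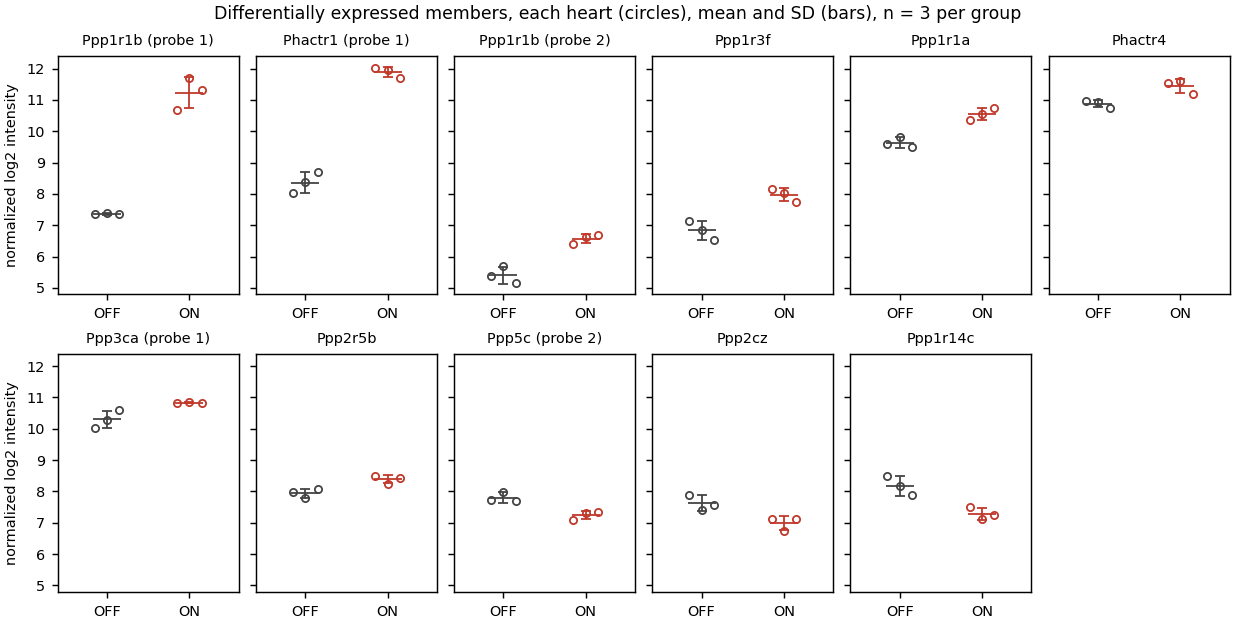
Normalized log2 intensity (y axis) of the 11 called probes in each heart (circles), with the mean and SD of the 3 hearts of a group as bars, hSRY-OFF in grey and hSRY-ON in red. In every panel the circles of the 2 groups do not overlap; the gap is widest for Ppp1r1b probe 1, from 7.39 to 10.69, and Phactr1 probe 1, from 8.69 to 11.71.

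Among the subunits that bring PP1 to glycogen, 1 of 3 tested genes was called, where 2973 of all 9660 tested genes had a called probe. Ppp1r3f read 7.12, 6.85 and 6.53 in hSRY-OFF and 8.16, 8.02 and 7.74 in hSRY-ON hearts. The groups did not overlap, and the log2 fold change was 1.14 (SE 0.19, limma adjusted p = 0.00417), a 2.2-fold difference. Ppp1r3c, also called PTG, was at -0.39 (95% interval -0.76 to -0.01, limma adjusted p = 0.119). Without hSRY-ON replicate 2 it was down-regulated by -0.53 (limma adjusted p = 0.0445). Ppp1r3b, the subunit best known from liver, was at -0.33 (95% interval -1.08 to 0.42). Ppp1r3a, the muscle subunit, was detected in 1 hSRY-OFF heart and no hSRY-ON heart and was not tested.

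The remaining PP1 regulators gave no call in 13 tested probes, where 27.5% of all tested probes were called. An unadjusted p under 0.05 in limma was reached by 4 of the 13 and by 5228 of all 12970 tested probes. The myosin phosphatase targeting gene Ppp1r12c had probes of opposite sign. Its brighter probe read 7.33, 7.33 and 7.55 in hSRY-OFF and 7.41, 7.46 and 7.51 in hSRY-ON hearts, a difference of 0.06 (95% interval -0.22 to 0.33). Its dimmer probe read 5.22, 6.02 and 5.90 against 4.94, 5.03 and 5.28, a difference of -0.63 (-1.14 to -0.11, limma adjusted p = 0.0727), close to background with 3 of 6 arrays detecting it. Without hSRY-OFF replicate 1 that probe was down-regulated by -0.86 (limma adjusted p = 0.0155). Ppp1r10, also called PNUTS, which holds PP1 in the nucleus, was at -0.44 and -0.64 by its 2 probes, and both were down-regulated without hSRY-ON replicate 1, the heart with the high Scgb1a1 (-0.63, limma adjusted p = 0.0374, and -0.86, limma adjusted p = 0.048). The dimmer of them was also down-regulated without hSRY-OFF replicate 3 (-0.86, limma adjusted p = 0.0392). The 7 probes of the scaffold genes Ppp1r13b, Ppp1r13l, Ppp1r15b, Ppp1r9a and Ppp1r9b lay between -0.21 and 0.26, and the hearts overlapped for all of them.

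Both Phactr genes with a tested probe were up-regulated, where 13.8% of all tested probes were. Phactr1 read 8.02, 8.37 and 8.69 in hSRY-OFF hearts and 12.02, 11.94 and 11.71 in hSRY-ON hearts, which places even the lowest hSRY-ON heart well above the highest hSRY-OFF heart. The log2 fold change was 3.53 (SE 0.19, limma adjusted p = 5.4e-05), an 11.6-fold difference that ranked 17 by increase among all tested probes. The deposited intensities were 450, 565 and 426 in hSRY-OFF and 4049, 4056 and 3265 in hSRY-ON hearts. The other 2 Phactr1 probes were detected on no array, at 4.65 to 4.84 and 4.50 to 4.84, so the increase rests on a single probe. Phactr4 read 10.96, 10.93 and 10.75 in hSRY-OFF and 11.54, 11.60 and 11.18 in hSRY-ON hearts. It was up-regulated by 0.56 (SE 0.15, limma adjusted p = 0.0299) with no overlap of the hearts. Its call was lost when any heart except hSRY-ON replicate 3 was left out, with log2 fold changes of 0.48 to 0.60 and limma adjusted p-values of 0.0668 to 0.0967. The Phactr3 probe was detected on no array, at 4.34 to 4.75.

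The RefSeq promoter table lists 3 start sites for Phactr1 and 1 for Ppp1r3f. The 250 bases before each start are shown for these genes because they are up-regulated at least 2-fold and have an entry in the RefSeq promoter table (build GRCm38.p6). Each is written 5′ to 3′ on the strand of the gene, and capitals mark TATAAA, read in the direction of the gene or its reverse complement, and CCAAT or its reverse complement ATTGG.
Phactr1 start 1 (chr13:42680549-42680798, plus strand): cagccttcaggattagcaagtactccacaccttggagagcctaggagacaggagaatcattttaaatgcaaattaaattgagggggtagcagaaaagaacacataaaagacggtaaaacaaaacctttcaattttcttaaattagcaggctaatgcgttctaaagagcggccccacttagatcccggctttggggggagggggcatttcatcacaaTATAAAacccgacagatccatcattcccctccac
Phactr1 start 2 (chr13:42865997-42866246, plus strand): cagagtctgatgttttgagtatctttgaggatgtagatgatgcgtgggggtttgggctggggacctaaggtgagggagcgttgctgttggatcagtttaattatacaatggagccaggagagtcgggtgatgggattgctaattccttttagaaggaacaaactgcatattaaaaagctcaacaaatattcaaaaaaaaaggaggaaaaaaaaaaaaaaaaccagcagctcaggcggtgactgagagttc
Phactr1 start 3 (chr13:43122589-43122838, plus strand): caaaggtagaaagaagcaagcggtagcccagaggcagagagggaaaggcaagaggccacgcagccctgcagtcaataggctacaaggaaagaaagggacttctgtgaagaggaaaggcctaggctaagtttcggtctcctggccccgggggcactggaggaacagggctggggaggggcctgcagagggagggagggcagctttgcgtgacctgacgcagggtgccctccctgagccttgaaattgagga
Ppp1r3f start 1 (chrX:7574282-7574531, minus strand): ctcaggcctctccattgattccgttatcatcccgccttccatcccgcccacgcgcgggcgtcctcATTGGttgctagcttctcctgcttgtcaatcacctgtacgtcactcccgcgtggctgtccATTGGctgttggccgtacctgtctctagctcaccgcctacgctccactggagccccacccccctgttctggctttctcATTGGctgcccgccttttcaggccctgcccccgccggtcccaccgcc
The window of the first Phactr1 start held TATAAA 34 bases before the start, a word found in 12.4% of the 32851 promoter windows of that length. The windows of the other 2 starts held neither word. The Ppp1r3f window held ATTGG 3 times, and 33.8% of all windows held that word or its complement at least once. SRY binds the words AACAAT and AACAAAG, which share the letters AACAA. On either strand AACAAT was in 9.42% and AACAAAG in 5.03% of all windows. Neither full word was in the 9 windows of the 7 called genes with an entry. Of the 50 windows of the 40 phosphatase and Phactr genes with an entry, 0 held AACAAT and 2 held AACAAAG. A missing word says only that these exact letters are not in that window, and start sites used in these hearts were not measured.

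PP2A joins a catalytic C subunit, a scaffolding A subunit and a variable B subunit that chooses the substrate. Of 18 tested PP2A probes of 12 genes, 1 was called (5.56%, against 27.5% of all tested probes), and the median log2 fold change was -0.10. Ppp2ca, the alpha catalytic subunit, read 13.24, 13.19 and 13.26 in hSRY-OFF and 13.10, 13.12 and 13.23 in hSRY-ON hearts, a difference of -0.08 (95% interval -0.33 to 0.18). Ppp2cb, the beta catalytic subunit, read 11.87, 11.83 and 12.05 against 12.18, 11.99 and 12.24, a difference of 0.23 (-0.07 to 0.52) with overlapping hearts. The scaffold genes Ppp2r1a and Ppp2r1b were at 0.00 (-0.29 to 0.30) and -0.23 (-0.56 to 0.11). The activator Ppp2r4, now named Ptpa, was at -0.44 (-0.97 to 0.09) and was down-regulated by -0.71 without hSRY-OFF replicate 3 (limma adjusted p = 0.0137).

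The called PP2A probe was that of Ppp2r5b, a B subunit of the B56 family. It read 7.99, 7.78 and 8.06 in hSRY-OFF and 8.50, 8.24 and 8.42 in hSRY-ON hearts, with no overlap and a log2 fold change of 0.44 (SE 0.13, limma adjusted p = 0.0444). The call was lost without hSRY-OFF replicate 1 or 2 and without hSRY-ON replicate 1 or 3 (0.36 to 0.47, limma adjusted p = 0.1 to 0.138), and with all hearts kept also without the probe filter (limma adjusted p = 0.0556). Of the 9 tested probes of the B56 genes Ppp2r5c, Ppp2r5d and Ppp2r5e, none was called by limma, against 27.5% of all tested probes. An unadjusted p under 0.05 in limma was reached by 1 of the 9 and by 5228 of all 12970 tested probes. Ppp2r5c read 10.46, 10.15 and 10.42 in hSRY-OFF and 10.33, 10.24 and 10.47 in hSRY-ON hearts by its brightest probe, a difference of 0.01. Its second probe read 9.97, 10.01 and 9.37 against 9.44, 9.17 and 9.54, a difference of -0.40 (95% interval -0.87 to 0.07), and was down-regulated by -0.60 without hSRY-OFF replicate 3 (limma adjusted p = 0.03). Its dimmest tested probe read 5.95, 5.89 and 6.31 against 6.19, 6.01 and 6.31, a difference of 0.12 (-0.24 to 0.48). The 4 Ppp2r5d probes lay between -0.25 and -0.01. The brighter Ppp2r5e probe lay nearest to the threshold among the probes not called, at -0.49 (SE 0.16, limma adjusted p = 0.057) with no overlap of the hearts, and was down-regulated without hSRY-OFF replicate 3 (-0.59, limma adjusted p = 0.0385) and without hSRY-ON replicate 3 (-0.62, limma adjusted p = 0.0315), while the dimmer probe was at -0.16 (95% interval -0.49 to 0.18).

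Calcineurin pairs a catalytic A subunit with a calcium-binding B subunit. Of 5 tested probes 1 was called, where 27.5% of all tested probes were called. Ppp3ca, the alpha catalytic subunit, read 10.04, 10.28 and 10.59 in hSRY-OFF and 10.83, 10.84 and 10.83 in hSRY-ON hearts by its brightest probe, where the hSRY-ON hearts were nearly identical and all above the hSRY-OFF hearts. The log2 fold change was 0.54 (SE 0.16, limma adjusted p = 0.0393). The call was lost without any heart except hSRY-OFF replicate 3, at 0.40 to 0.54 (limma adjusted p = 0.0823 to 0.131), and with all hearts kept also without the probe filter (limma adjusted p = 0.0566). The second probe of the gene read 8.90, 8.93 and 8.14 against 8.83, 8.70 and 8.64, overlapped and was at 0.07 (95% interval -0.44 to 0.58), and the last was detected on no array. Ppp3cb, the beta catalytic subunit, read 11.71, 11.82 and 12.06 in hSRY-OFF and 11.76, 11.63 and 11.62 in hSRY-ON hearts, a difference of -0.20 (-0.51 to 0.12). Ppp3cc, the gamma catalytic subunit, read 9.74, 9.80 and 9.73 against 9.24, 9.74 and 9.48, a difference of -0.27 (-0.62 to 0.08). The hearts of both genes overlapped. Ppp3r1, the B subunit, was at 0.23 (-0.02 to 0.49, limma adjusted p = 0.154), with all hSRY-ON hearts above all hSRY-OFF hearts.

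Neither the catalytic subunit of PP4 nor that of PP6 was called. Ppp4c read 10.81, 10.79 and 10.84 in hSRY-OFF and 10.86, 10.76 and 11.03 in hSRY-ON hearts, a difference of 0.07 (95% interval -0.21 to 0.35). Ppp6c read 10.97, 11.13 and 11.12 against 11.11, 11.08 and 11.12, a difference of 0.03 (-0.23 to 0.29). The PP4 regulatory gene Ppp4r1 had 2 tested probes of opposite sign. The brighter one read 11.28, 11.34 and 11.50 against 11.48, 11.46 and 11.28, a difference of 0.04 (-0.25 to 0.33), and the other read 10.02, 9.59 and 9.98 against 9.84, 9.79 and 9.83, a difference of -0.05 (-0.38 to 0.29). Another Ppp4r1 probe was detected in 2 hSRY-OFF hearts and no hSRY-ON heart and was not tested.

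Ppp5c, a phosphatase that binds HSP90 through its own tetratricopeptide repeats and needs no separate regulatory subunit, had 2 probes below 0. The brighter probe read 9.93, 9.74 and 9.96 in hSRY-OFF and 9.31, 9.29 and 9.78 in hSRY-ON hearts, a difference of -0.42 (95% interval -0.80 to -0.04, limma adjusted p = 0.0981) with overlap, and was down-regulated by -0.58 without hSRY-ON replicate 3 (limma adjusted p = 0.0276). The dimmer probe read 7.72, 7.99 and 7.69 against 7.09, 7.33 and 7.34, did not overlap, and was down-regulated by a log2 fold change of -0.55 (SE 0.14, limma adjusted p = 0.024). That call was lost without hSRY-OFF replicate 1 or 2 and without hSRY-ON replicate 1 (-0.59 to -0.45, limma adjusted p = 0.0575 to 0.0841). Over the catalytic subunits of PP1 to PP6, 11 genes and 16 tested probes, 1 probe was up-regulated and 1 down-regulated. The median log2 fold change was -0.09, and 9 genes had no called probe. Of all tested probes 13.8% were up-regulated and 13.7% down-regulated, and 2973 of 9660 tested genes had a called probe.

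The symbol Ppp2cz fits the rule by its letters but is an older name of Ppm1j, a phosphatase of the metal-dependent PP2C family and no PP2A subunit. It read 7.90, 7.42 and 7.56 in hSRY-OFF and 7.11, 6.73 and 7.12 in hSRY-ON hearts, with no overlap, and was down-regulated by -0.64 (SE 0.18, limma adjusted p = 0.0321). The call was lost without hSRY-OFF replicate 1 or 3 and without hSRY-ON replicate 1 or 2 (-0.70 to -0.50, limma adjusted p = 0.0512 to 0.106). The probe that the array labels Ppm1j was down-regulated as well, by -0.83 (SE 0.18, limma adjusted p = 0.0129). Without Ppp2cz, 10 of 61 tested probes were called (16.4%), against 27.5% of all tested probes.

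Genes with several probes gave a check within the arrays, since such probes share the heart and the gene but not the sequence. Of the 53 genes, 18 had several probes, and 12 had at least 2 tested, 30 probes in all. The probes of 9 genes shared a call only in that none of them was called. Those of Ppp1r1b, Ppp3ca and Ppp5c, the only genes here with a called probe, differed in call. Counted by array symbol, no gene with several tested probes therefore had all of them called. The probes labelled Ppp2cz and Ppm1j, symbols of the same gene, were both down-regulated, at -0.64 and -0.83. The tested probes had the same sign in 8 genes and opposite signs in Ppp1ca, Ppp1r12c, Ppp2r5c and Ppp4r1, none of which had a called probe. These signs turned with the scaling: without normalization between arrays all probes of Ppp1ca, Ppp1r12c and Ppp4r1 were below 0 and Ppp1r13b and Ppp3ca had probes of both signs, with scaling to the median of detected probes both Ppp4r1 probes were above 0 and Ppp2r5d had both signs, and with iterative scaling all Ppp1ca probes were below 0. The spread between the highest and lowest probe of a gene had a median of 0.23 and reached 3.34 in Ppp1r1b and at most 0.68, in Ppp1r12c, elsewhere.

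**Figure D3:**
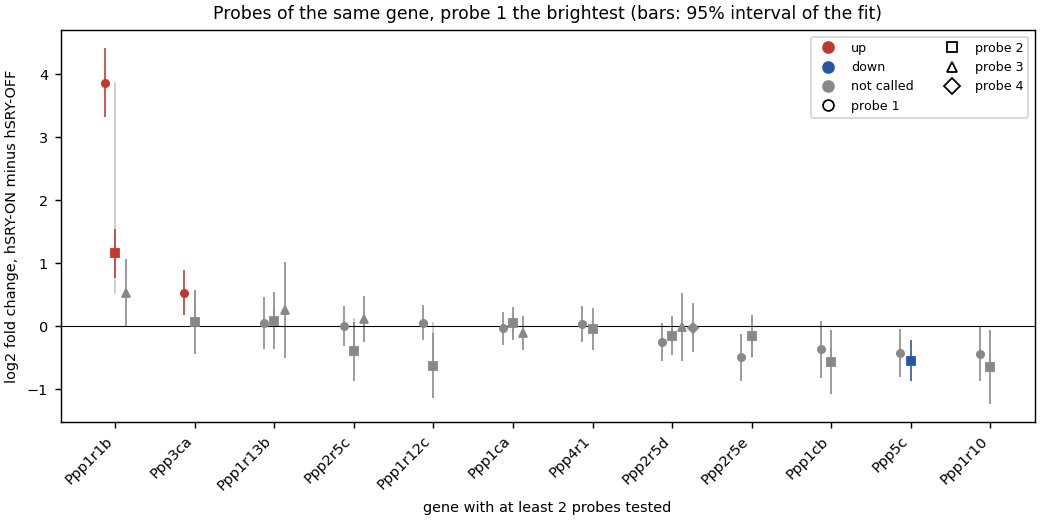
Log2 fold change, hSRY-ON minus hSRY-OFF (y axis), of every tested probe of the 12 genes with at least 2 tested probes, probe 1 being the brightest, with bars for the 95% interval of the fit. Red marks up-regulated, blue down-regulated and grey uncalled probes; the 3 Ppp1r1b probes spread from 0.53 to 3.87, and those of each other gene lie within 0.68 of each other.

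The median absolute log2 fold change was 0.23 over the 62 probes and 0.30 over all tested probes, and 77.4% of the 62 against 70.5% of all stayed under 0.5. The median standard error of a log2 fold change was 0.15 for these probes and 0.16 for all. A change of at least 2-fold was called in 4 probes, all up-regulated (Ppp1r1b probes 1 and 2, Phactr1 and Ppp1r3f), where 4.9% of all tested probes were up-regulated and 4.52% down-regulated by that much. Without background correction and with normexp at an offset of 50, 2 of these probes stayed at 2-fold or more, the brightest of Ppp1r1b and Phactr1. Ppp1r3f was then at 0.62 and 0.84 and Ppp1r1b probe 2 at 0.38 and 0.61. Ppp1r14c was down-regulated at least 2-fold without normalization between arrays and without hSRY-OFF replicate 3.

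**Figure D4:**
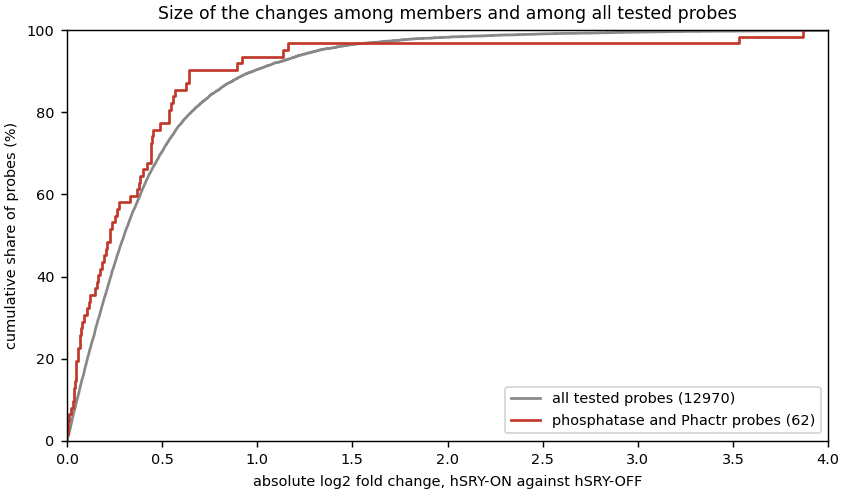
Cumulative share of probes in percent (y axis) with an absolute log2 fold change up to the value on the x axis, for the 62 phosphatase and Phactr probes (red) and all 12970 tested probes (grey). The red line runs above the grey one for most small changes, with 77.4% against 70.5% at 0.5, and ends with the Phactr1 and Ppp1r1b probes at 3.53 and 3.87.

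Partners of these phosphatases that the symbol rule does not match were counted in 6 lists, in which 32 of 84 tested probes of 54 genes were called (38.1%), 16 up- and 16 down-regulated, against 27.5% of all tested probes. Among the calcineurin regulators and targets, 3 of 16 probes were up-regulated and 5 down-regulated. Rcan1, a feedback inhibitor that calcineurin itself induces, read 9.72, 9.34 and 9.49 in hSRY-OFF and 8.76, 8.07 and 8.99 in hSRY-ON hearts and fell by 0.91 (SE 0.24, limma adjusted p = 0.0275). All 3 probes of its relative Rcan2 fell, by 0.64, 0.65 and 0.78. Ppif, the mitochondrial cyclophilin D that binds cyclosporin, had the largest decrease of the list, at -0.94 (SE 0.15, limma adjusted p = 0.00361), and Fkbp1a, the FK506-binding protein that also binds the ryanodine receptor, had the largest increase, at 0.48 (SE 0.12, limma adjusted p = 0.0221). The calcineurin target Nfatc1 was up-regulated at both of its called probes, by 0.41 (limma adjusted p = 0.0426) and 0.42 (limma adjusted p = 0.045). Another tested Nfatc1 probe had overlapping hearts and was not called, at 0.27 (limma adjusted p = 0.274).

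Among PKA subunits and inhibitors, whose kinase activates DARPP-32 and inhibitor-1, 6 of 9 probes were down-regulated and 1 was up-regulated. The shares among all tested probes were 13.7% down and 13.8% up. By gene, 3 of the 6 tested were down-regulated and 1 was up-regulated. The 3 probes of Pkig, an inhibitor peptide of the kinase, fell by 1.41, 1.08 and 1.13, the largest decrease with SE 0.20 and limma adjusted p = 0.00229. The catalytic subunit Prkaca fell by 0.69 and 0.55 by its 2 called probes, and Prkar1b, a regulatory subunit, rose by 1.07 (SE 0.23, limma adjusted p = 0.0116). Prkacb, another catalytic subunit, was not called, at 0.34 (SE 0.15, limma adjusted p = 0.13), with all hSRY-ON hearts above all hSRY-OFF hearts. Among genes of the actin, MRTF and SRF axis, 6 of 15 probes were up-regulated and none down-regulated. These 6 probes belonged to 3 of the 8 tested genes. An unadjusted p under 0.05 in limma was reached by 7 of the 15 and by 5228 of all 12970 tested probes. Of the 15 probes 12 were above 0 and 3 below. Both Srf probes were below 0, at -0.48 (limma adjusted p = 0.0955) and -0.15 (limma adjusted p = 0.528). At the former all hSRY-ON hearts lay below all hSRY-OFF hearts. The largest increase was that of Tagln, at 1.81 (SE 0.34, limma adjusted p = 0.00766), followed by Ctgf at 1.5 and 4 Acta2 probes at 0.53 to 1.48. Tagln and Acta2 are smooth muscle markers as well, whose summed intensities were given above, while Smtn of the same marker list fell by 1.24 to 1.52 at its 3 probes.

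In the PP2C and PPEF list 4 of 24 probes were up- and 5 down-regulated, against 13.8% up and 13.7% down among all tested probes. Ppm1l had the largest called increase, at 1.21 (SE 0.33, limma adjusted p = 0.0312). Its brighter probe had overlapping hearts and was not called, at 1.24 (SE 0.41, limma adjusted p = 0.0595). Ppm2c, the catalytic subunit of pyruvate dehydrogenase phosphatase, had the largest decrease, at -1.28 (SE 0.15, limma adjusted p = 0.0011). Of the PP2A modulators, 2 of 14 probes were up-regulated, both of Lcmt1, the methyltransferase of the PP2A catalytic subunit, by 0.48 and 0.54, and none was down-regulated, with 6 of the 14 at an unadjusted p under 0.05 in limma in either direction. None of the 6 probes of PP4 and PP6 partners was called by limma, 1 of them with an unadjusted p under 0.05. Of all 12970 tested probes, 27.5% were called and 5228 reached an unadjusted p under 0.05 in limma. The array also holds 14 older symbols whose current name fits the rule. None of their 10 tested probes was called by limma, with 2 at an unadjusted p under 0.05. Among them Myd116, now Ppp1r15a, which brings PP1 to the translation factor eIF2alpha, was at 0.58 (SE 0.20, limma adjusted p = 0.0688).

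**Figure D5:**
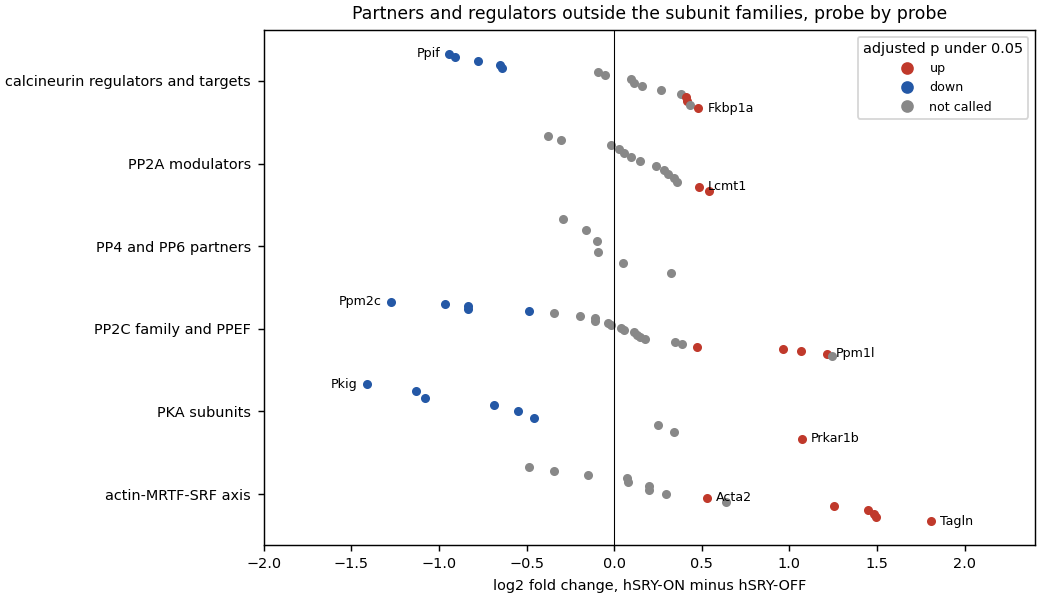
Log2 fold change, hSRY-ON minus hSRY-OFF (x axis), of each tested probe of the 6 partner lists (rows, points offset vertically for legibility), red for up-regulated, blue for down-regulated and grey for uncalled probes, with the genes of the extreme called probes named. Called PKA probes lie left of 0 except Prkar1b at 1.07, and called probes of the actin, MRTF and SRF axis all lie to the right, up to Tagln at 1.81.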

How the data were processed

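Total RNA of 6 hearts was amplified to biotinylated cRNA and hybridized to Illumina MouseRef-8 v2.0 BeadChips. The authors deposited a table of intensity values that were not normalized, with a detection p-value per probe and array. The methods name the R package TCC without settings and the submitters' processing notes name limma. No build or version is given in the sources used here. Intensities were background-corrected with negative controls inferred from the detection p-values, quantile normalized and set on a log2 scale (neqc, offset 16, limma 3.58.1, R 4.3.3). A probe with detection p under 0.05 on at least 3 arrays was tested with lmFit and eBayes, group as the only term, 3 hearts per group, with Benjamini-Hochberg adjustment over 12970 probes. Quantile normalization assumes a like distribution in every heart and would hide a general shift. The fit was tested on simulated data. Of 99 planted log2 changes of 1, 73 were called in the right direction, and of 100 planted changes of 2, 98 were. Of the unchanged probes among 13009 tested, 13 were called. The planted changes were a far smaller share of the tested probes than the 27.5% called in the hearts. These rates therefore need not hold for the hearts. The labels do not say that replicates are separate litters, so p-values measure the spread between these hearts. With 3 against 3 hearts an exact permutation test cannot go below p = 0.1. The number of arrays limits the precision.

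The members and lists were chosen with earlier results of these data known. The text names every gene with a called probe, every catalytic subunit, every Phactr gene and every gene whose tested probes differed in call or sign, and in each partner list the called genes with the largest increase and decrease. Ppp1r2, Ppp1r3b, Ppp1r3c, Ppp1r10, Ppp1r11, Ppp1r14a, the PP2A scaffold and B56 genes, Rcan1, Rcan2, Nfatc1, Prkaca, Ctgf, Acta2, Smtn, Myh11, Myh6, Myh7, Pln, Ryr2, Stmn2, Dbh and Myd116 were named after their values were seen. The same holds for Prkacb and Srf. The list of older symbols was added after the symbols of the table were read. Skeletal muscle, fat, endothelium, fibroblast and erythroid marker lists were also counted. In that order, 6 of 7, 2 of 4, 4 of 7, 2 of 9 and 1 of 5 tested probes were called, against 27.5% of all. Alternatives covered background correction, normalization, probe filter, prior variance, replicate number as a block and each heart left out in turn. Python 3.11.15 and matplotlib 3.10.9 drew the figures.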

Additional observations from a re-analysis of the deposited data

How the results depend on the processing

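Among the 11 called probes, 5 of 8 up-regulated (Ppp1r1b probes 1 and 2, Phactr1, Ppp1r3f and Ppp1r1a) and 1 of 3 down-regulated (Ppp1r14c) kept their call in every alternative that tested them, 15 for Ppp1r1b probe 2, which was not detected on all 6 arrays, and 16 for the others, and no tested probe with a call reversed its direction. The 11 calls of the report stand beside 3567 calls over all probes and 21 called partner genes. The number of down-regulated phosphatase and Phactr probes was 5 without background correction, 5 with normexp at an offset of 50, 1 with scaling to the median of detected probes and 7 with an intensity trend in eBayes. Without normalization between arrays, 1897 of all probes, 5 up-regulated and 1 down-regulated phosphatase and Phactr probes were called, where the median over all probes was -0.117 and 38.5% of calls up, and with median scaling the median was 0.0949 and 65.7% of calls were up, against 50.1% in the report. Phactr4 (adjusted p = 0.376), Ppp3ca (0.401), Ppp2r5b (0.592), Ppp2cz (0.0679) and Ppp5c probe 2 (0.129) lost their limma calls without normalization between arrays, and Ppp2cz (0.0581) and Ppp5c probe 2 (0.0882) with median scaling. Leaving out each heart gave 2239 to 3714 calls over all probes, 5 to 9 up-regulated and 2 to 8 down-regulated phosphatase and Phactr probes, and 13 to 21 partner genes. The count of 3714 came without hSRY-OFF replicate 3. That array had the fewest detected probes (47.2%) and the lowest mean intensity, 631 against 723 to 939 on the others. The cause of these differences was not tested. Of the 51 uncalled probes, 38 stayed uncalled wherever they were tested, and Ppp2r5e probe 1 was called in 7 alternatives.

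Hearts of the same replicate number did not deviate together (correlations of -0.0655 to 0.0375, 2 of 6 arrays correlating best with their own number). With so few hearts these correlations cannot tell whether the numbers pair the hearts, and the labels name no litters. With the replicate number as a block, 2842 of all probes, 6 up-regulated and 4 down-regulated phosphatase and Phactr probes and 15 partner genes were called, and Ppp3ca (limma adjusted p = 0.0641) and Ppp2r5b (0.0579) lost their calls. Probes near the background, such as Ppp1r1b probes 2 and 3 and Ppp1r12c probe 2, have compressed differences: Ppp1r1b probe 2 ranged from 0.38 to 1.22 across background corrections, normalizations and filters.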
